A study of Homo sapiens with 6 samples.

Results

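Cell cycle and DNA replication genes were followed in WM983-B melanoma xenografts with and without systemic anle138b. The set held 43 genes, 18 grouped as replication and 25 as mitotic, out of 60617 gene identifiers listed for each tumor. The replication group includes G1 and G1/S cyclins and E2F factors, and the mitotic group the transcription factors FOXM1 and MYBL2. Members were chosen by function as classical cell cycle genes, matched by symbol to their Ensembl identifiers and read from the raw counts. All 43 matched an identifier, and 42 passed the filter on low counts and were tested. NUSAP1 did not pass the filter.

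RNA sequencing covered 6 tumors grown in host animals from the established melanoma line WM983-B. The 3 tumors called anle138b 1 to 3 had received anle138b, a diphenyl-pyrazole compound that binds oligomers of α-synuclein, by the systemic route, and the 3 called untreated 1 to 3 had received no treatment. The sources used here give no host strain or age, dose or length of treatment. They do not tie each tumor to an animal of its own, so a p-value reflects only how these 6 libraries vary. Titles fell into 2 naming sets: anle138b 1 and 2 and untreated 1 and 2 carried "Juni2018", and anle138b 3 and untreated 3 began with "blau". What the sets stand for was not stated. The Juni2018 titles also held a letter, R in both treated and L in both untreated tumors, and both blau titles held R. The meaning of this letter was not stated, and within Juni2018 it cannot be told apart from treatment.

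Cells license their replication origins in G1 by loading the MCM helicase, copy the genome in S phase with the help of the sliding clamp PCNA and a supply of deoxynucleotides, and then switch to the cyclin B and CDK1 program of mitosis. Transcription of these genes is periodic: E2F factors drive the replication genes at the G1/S boundary, and B-MYB and FOXM1 drive the mitotic genes in G2 through CHR elements near the start site. Their summed RNA is therefore a common measure of how much of a tumor is in cycle. In melanoma the upstream brake is often weakened through loss of CDKN2A function or gain of cyclin D1 and CDK4 activity.

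Gene counts summed to between 12400782 and 27599159 per library, the blau libraries being deepest, and 3 counts stood for 0.106 to 0.24 CPM (counts scaled to library size, here by TMM). Such floors cover counting error only. The melanoma label was met by most of its markers. The 10 melanocyte-lineage and melanoma markers summed to 14100 to 19000 CPM, most of it PMEL (8280 to 13400 CPM). MITF, the lineage transcription factor, lay between 953 and 1250 CPM, while PRAME, in the same list, read only 2.37 to 8.19 CPM. Of 8 lymphocyte markers, 7 stayed under 1 CPM in every library, and 1 of these, CD3D, was at 0 in all. In bulk tissue, fewer cycling cells and less of these transcripts per cell cannot be told apart.

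The promoters of the replication and the mitotic members carried different short words. In the RefSeq table (GRCh38.p14), 34 of the 43 members had a promoter, the 300 bases from 250 before to 50 after the start, and the first listed one was used for each. E2F-like letters, TTTCCCGC, TTTGGCGC or TTTCGCGC on either strand, occurred in 11 of 14 replication promoters (78.6%), 3 of 20 mitotic promoters (15%) and 2.79% of all 27305 promoters of that length. CHR letters, TTTGAA on either strand, occurred in 0 of 14 replication promoters, 11 of 20 mitotic promoters (55%) and 15.4% of all promoters. CCAAT, the word bound by NF-Y, was in 57.1% of the replication and 75% of the mitotic promoters, against 35.7% of all. Both CHR and CCAAT stood in 50% of the mitotic promoters and 6.08% of all. E2F-like matches can overlap each other on opposite strands, as in MCM6, and CHR can share bases with CCAAT, as in MKI67. Among related genes outside the members, E2F-like letters were in 30% of 40 other replication promoters and CHR letters in 71.1% of 45 other mitotic promoters. These matches are letters in a window and were not tested for binding.

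Stretches of 150 bases before the start are shown for the 4 members whose stretch held an E2F-like or CHR match and no annotated exon, because they display the words that set the replication and mitotic genes apart. Capitals mark E2F-like, CHR and CCAAT matches, and a match on the other strand appears as its reverse complement. MCM6, a subunit of the helicase, lies on the minus strand (chr2:135876444-135876593), as does E2F2, an activating E2F factor (chr1:23531234-23531383). KIF11, the motor that separates spindle poles, is on the plus strand (chr10:92592980-92593129), and MKI67, the gene of the Ki-67 antigen, on the minus strand (chr10:128126424-128126573). All 4 are given 5′ to 3′ on the gene's strand in GRCh38.p14.
MCM6: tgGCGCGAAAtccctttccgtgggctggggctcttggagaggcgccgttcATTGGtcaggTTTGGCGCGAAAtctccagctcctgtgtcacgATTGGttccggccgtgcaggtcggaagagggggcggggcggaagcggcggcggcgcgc
E2F2: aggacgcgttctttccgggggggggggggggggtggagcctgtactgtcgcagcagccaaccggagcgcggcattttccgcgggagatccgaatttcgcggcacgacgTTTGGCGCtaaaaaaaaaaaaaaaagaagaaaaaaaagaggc
KIF11: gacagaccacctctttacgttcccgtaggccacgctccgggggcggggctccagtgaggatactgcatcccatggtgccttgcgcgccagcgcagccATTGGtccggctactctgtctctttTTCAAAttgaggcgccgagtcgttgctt
MKI67: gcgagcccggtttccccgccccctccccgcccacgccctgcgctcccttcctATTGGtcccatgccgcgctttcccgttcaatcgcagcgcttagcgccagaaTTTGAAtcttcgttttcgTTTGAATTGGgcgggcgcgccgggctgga
The MCM6 stretch holds a pair of overlapping E2F-like matches at positions -90 to -79 from the start. In MKI67 the CHR letters stand at -47 to -42 and at -29 to -24, and in KIF11 at -28 to -23.

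All 42 tested members were expressed in every tumor, at levels that differed widely between genes. Per kilobase of exon, PCNA was highest at 169 ± 15.2 CPM (SD, n = 6 libraries), and its lowest library (146) lay above the highest library of every other member. UBE2C, the ubiquitin-conjugating enzyme of the anaphase-promoting complex, followed at 60.2 ± 9.57, then TPX2, a spindle assembly factor that activates Aurora A, at 56.9 ± 4.66 and MCM7 at 48.6 ± 9.23. At the low end of the tested members stood the cyclin E genes CCNE2 (3.81 ± 0.404) and CCNE1 (3.54 ± 0.589) and E2F2 (2.91 ± 0.558). Exons of INTS8 and ENSG00000272509 cover 37.1% of the exon bases of CCNE2, so its level is uncertain. From UBE2C down to E2F2, each member's range over the 6 libraries overlapped that of the next in the order, so neighbours were not separated. NUSAP1, a microtubule bundler of the spindle, held only 6 to 13 counts per library (0.184 ± 0.05 CPM per kilobase). Its exons share 62.2% of their bases with another gene model, ENSG00000285920, so reads from this locus may have been left unassigned.

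**Figure D1:**
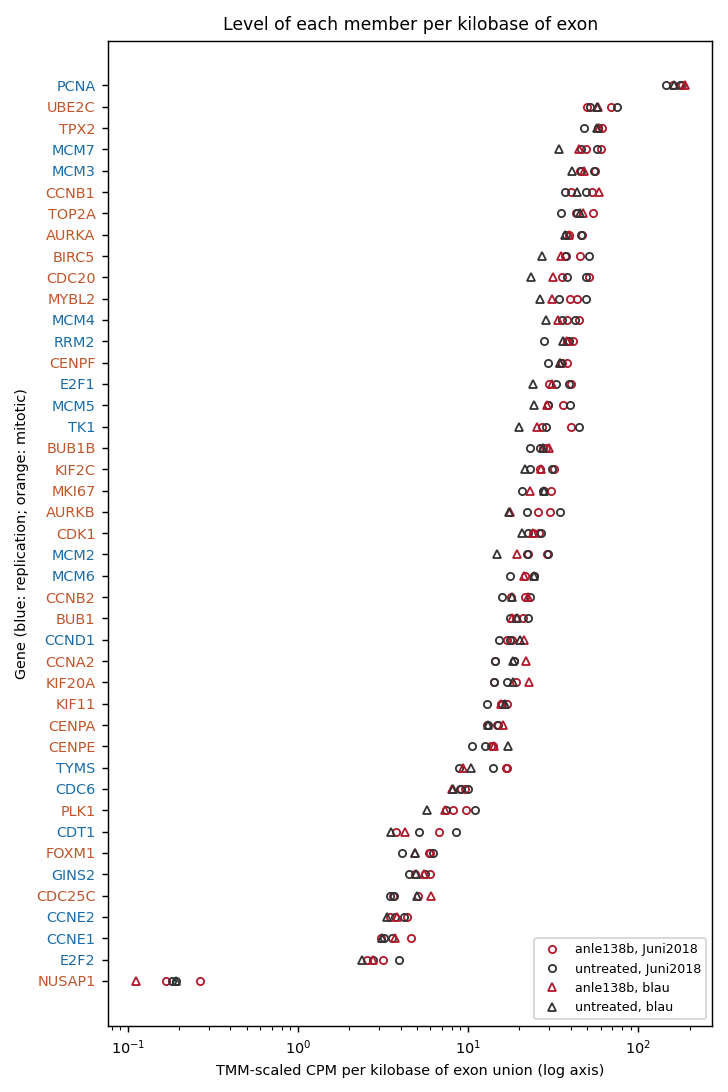
Level of each of the 43 members as TMM-scaled CPM per kilobase of exon (log axis), 1 point per library; red is anle138b, dark grey untreated, circles the Juni2018 set and triangles the blau set. PCNA stands alone at the top between 146 and 188, and NUSAP1 stands alone at the bottom.

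Treatment with anle138b was compared with no treatment to ask whether the tumors' cell cycle transcripts differed. No member passed the test: 0 rose, 0 fell and 42 were not called by edgeR's quasi-likelihood test with a term for the naming set. Over all 20423 genes the same test called 1.05%, with 0.656% higher and 0.397% lower after treatment. The smallest adjusted p of a member was 0.724, 0 of 42 had an unadjusted p under 0.05, and DESeq2 and limma likewise called 0. Estimates were small and mostly positive. The log2 fold change was above 0 for 36 of 42 members (85.7%, against 47.9% of all genes), with a median of 0.10 against -0.01, and ran from -0.15 for CDT1 to 0.32 for TYMS. Replication members had a median of 0.09, with 15 of 18 positive, and mitotic members one of 0.10, with 21 of 24 positive. Members vary together from tumor to tumor, as shown further on, so this count is not 42 separate observations. The 95% intervals bound what the data allow: 35 of 42 lay wholly within 0.5 on the log2 scale (1.41-fold) of no difference, against 44.7% of all genes. These shares also depend on precision. The standard error had a median of 0.14 and a maximum of 0.25 among members, against 0.17 and 0.98 over all genes.

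**Figure D2:**
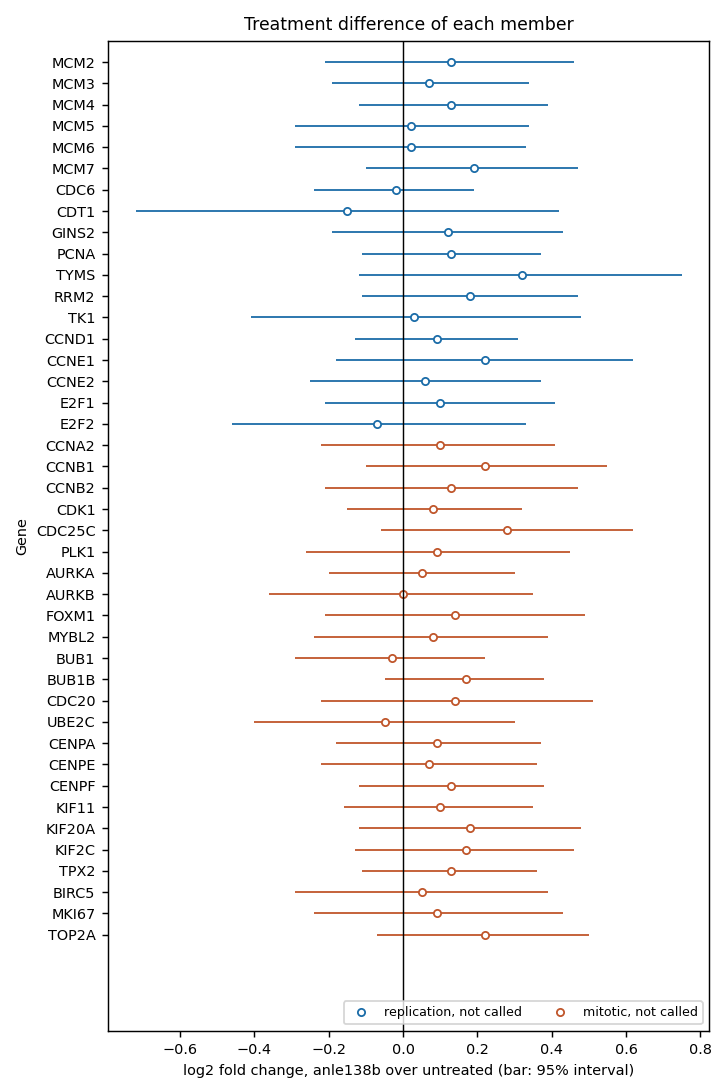
Log2 fold change of anle138b over untreated for the 42 tested members, with bars for the 95% interval; blue marks replication and orange mitotic genes, and open points were not called. Every interval includes 0, and estimates run from -0.15 to 0.32.

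Origin licensing and helicase genes had a median log2 fold change of 0.07, with 0 of 9 called. MCM7 (chromosome 7, 100092728 to 100101940, GRCh38) had 263, 216 and 197 CPM in anle138b 1 to 3 and 202, 250 and 150 CPM in untreated 1 to 3. Treated and untreated tumors overlapped, and the log2 fold change was 0.19 ± 0.13 (SE, n = 3 per group; adjusted p = 0.82, edgeR). MCM4 (chromosome 8, 47960185 to 47978160) read 311, 267 and 234 CPM against 248, 298 and 199 CPM, a log2 fold change of 0.13 ± 0.11. MCM2 (chromosome 3, 127598223 to 127622436), often stained as a proliferation marker, read 143, 110 and 94.6 CPM against 109, 145 and 71.9 CPM (0.13 ± 0.15). Exons of ENSG00000285600 and TPRA1 cover 23.6% of the exon bases of MCM2, so its level is uncertain. In all 3 genes untreated 3 was the lowest library, and anle138b 1 and untreated 2 were the highest pair. MCM3, MCM5 and MCM6 had log2 fold changes of 0.07, 0.02 and 0.02, and GINS2, of the complex that joins MCM to the active helicase, one of 0.12. The licensing factors CDC6 and CDT1, which load MCM onto origins, had -0.02 ± 0.10 and -0.15 ± 0.25. CDT1 also spread most of all members, 2.43-fold between its lowest and highest library, and its interval ran from -0.72 to 0.42.

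For the replication clamp and the enzymes that supply deoxynucleotides the median was 0.16, with 0 of 4 called. TYMS, thymidylate synthase (chromosome 18, 657604 to 673578), read 41, 41.9 and 23.1 CPM in treated and 21.9, 34.5 and 25.8 CPM in untreated tumors. The treated tumors of the Juni2018 set were above every untreated tumor, and the treated tumor of the blau set was below the untreated tumor of that set. Its log2 fold change was 0.32 ± 0.19 (adjusted p = 0.78, edgeR). Exons of ENOSF1 and TYMSOS cover 46.6% of its exon bases, and without strand information their reads cannot be told apart. RRM2, the regulated subunit of ribonucleotide reductase (chromosome 2, 10120698 to 10131419), read 219, 203 and 202 CPM against 149, 209 and 192 CPM (0.18 ± 0.13), with untreated 1 apart from the other 5. Its level is uncertain too, since exons of ENSG00000284681 cover 20.2% of its exon bases. PCNA (chromosome 20, 5114953 to 5126626) read 265, 237 and 277 CPM against 215, 257 and 238 CPM (0.13 ± 0.11). TK1, thymidine kinase, had 0.03 ± 0.20.

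The G1 and G1/S cyclins and the activating E2F factors had a median of 0.09, with 0 of 5 called. CCNE1, cyclin E1, the partner of CDK2 at S phase entry (chromosome 19, 29811898 to 29824308), read 11.8, 7.83 and 9.48 CPM in treated and 8.1, 9.04 and 7.93 CPM in untreated tumors (log2 fold change 0.22 ± 0.18). Both ends of that range, the highest and the lowest library, were treated tumors. CCND1, cyclin D1, which activates CDK4 and CDK6 (chromosome 11, 69641087 to 69654474), read 86.9, 81.5 and 103 CPM against 73.2, 85 and 97.4 CPM (0.09 ± 0.10). Here the blau tumors were above all 4 Juni2018 tumors, treated or not. E2F1 (chromosome 20, 33675683 to 33686404) read 100, 75.2 and 77.3 CPM against 81.6, 97.3 and 60.6 CPM (0.10 ± 0.14). CCNE2 and E2F2 had 0.06 and -0.07.

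Among late cyclins, mitotic kinases and their transcription factors the median was 0.10, with 0 of 10 called. CDC25C, the phosphatase that activates CDK1 (chromosome 5, 138285265 to 138338355), had the smallest adjusted p of all members. It read 17, 12 and 20.3 CPM in treated and 11.5, 12.3 and 16.8 CPM in untreated tumors, a log2 fold change of 0.28 ± 0.15 (adjusted p = 0.724, edgeR), and the groups overlapped. CCNB1, cyclin B1 (chromosome 5, 69167010 to 69178245), read 137, 103 and 150 CPM against 95.5, 126 and 111 CPM (0.22 ± 0.15). CDK1, the mitotic kinase itself (chromosome 10, 60778331 to 60794852), read 102, 93.8 and 94.4 CPM against 88.6, 105 and 81.6 CPM (0.08 ± 0.11), with its highest library untreated. CCNA2 and CCNB2, cyclins A2 and B2, had 0.10 and 0.13. The kinases PLK1, AURKA and AURKB had 0.09, 0.05 and 0.00. FOXM1 and MYBL2, the latter encoding B-MYB, had 0.14 and 0.08.

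In the spindle checkpoint and anaphase-promoting complex group 2 of 4 estimates were positive, with a median of 0.06 and 0 called. BUB1B, the checkpoint protein BubR1 (chromosome 15, 40161023 to 40221136), read 129, 123 and 134 CPM in treated and 103, 118 and 124 CPM in untreated tumors. Each treated tumor was above the untreated tumors of its own set, but the groups overlapped across sets. With 0.17 ± 0.09 it had the smallest standard error of all members (adjusted p = 0.756, edgeR). CDC20, the activator of the anaphase-promoting complex (chromosome 1, 43358955 to 43363203), read 105, 72.8 and 64.1 CPM against 77.6, 100 and 47.9 CPM (0.14 ± 0.16), and its levels spread 2.20-fold. BUB1 and UBE2C had -0.03 and -0.05.

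Kinetochore, spindle and mitotic chromosome genes had a median of 0.11, with all 10 tested estimates positive and 0 called. TOP2A, topoisomerase II alpha, which untangles replicated DNA (chromosome 17, 40388516 to 40417950), read 346, 279 and 305 CPM in treated and 227, 281 and 293 CPM in untreated tumors (0.22 ± 0.13; adjusted p = 0.763, edgeR). Anle138b 2 was below both untreated 2 and untreated 3. KIF20A, a kinesin of the central spindle (chromosome 5, 138178719 to 138187715), read 75.9, 55.8 and 90.2 CPM against 56, 66.8 and 72.4 CPM (0.18 ± 0.13). MKI67 (chromosome 10, 128096659 to 128126385), the usual histological marker of cycling cells, read 358, 391 and 294 CPM against 264, 351 and 358 CPM (0.09 ± 0.15; adjusted p = 0.96, edgeR). Its highest library was treated, and so was its lowest in the blau set. The kinetochore genes CENPA, CENPE and CENPF had 0.09, 0.07 and 0.13, the motors KIF11 and KIF2C 0.10 and 0.17, and BIRC5, survivin of the chromosomal passenger complex, 0.05. TPX2 (0.13 ± 0.10) was the 1 member with all 3 treated tumors (221, 210 and 211 CPM) above all 3 untreated tumors (172, 209 and 207 CPM), an order that 4.03% of all genes showed. With BUB1B it was also 1 of 2 members with treated above untreated within both sets, as 9.52% of all genes were.

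Tumors of the same group differed from each other, and the members moved together when they did. Untreated 2 exceeded untreated 1 in 42 of 42 members, with a median difference of 0.33 in log2 CPM. Over all genes 54.7% were higher there, with a median of 0.03. Anle138b 1 exceeded anle138b 2 in 39 of 42 members (median 0.26, against 0.03 over all genes). In the blau set anle138b 3 exceeded untreated 3 in 34 of 42 (median 0.22, against 0.00). Treated and untreated Juni2018 tumors differed in both directions. Anle138b 1 exceeded untreated 1 in 42 of 42 members (median 0.39) and untreated 2 in 25 (median 0.03). Anle138b 2 exceeded untreated 1 in 29 of 42 (median 0.10) and untreated 2 in 6 (median -0.22). Over all genes the medians of these pairs ran from -0.03 to 0.01. These are differences between single libraries and carry no test. Each tumor's median member deviation from the gene's mean was 0.20 and 0.17 log2 CPM in anle138b 1 and untreated 2, and -0.17 and -0.12 in untreated 1 and untreated 3. It was -0.04 in anle138b 2 and -0.02 in anle138b 3. The high pair thus held 1 treated and 1 untreated tumor. For 15 members the highest library was anle138b 1 and for another 15 untreated 2, while the lowest was untreated 1 for 19 and untreated 3 for 18. The ratio of highest to lowest library had a median of 1.51 over the members and ran from 1.24 for CENPA to 2.43 for CDT1.

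**Figure D3:**
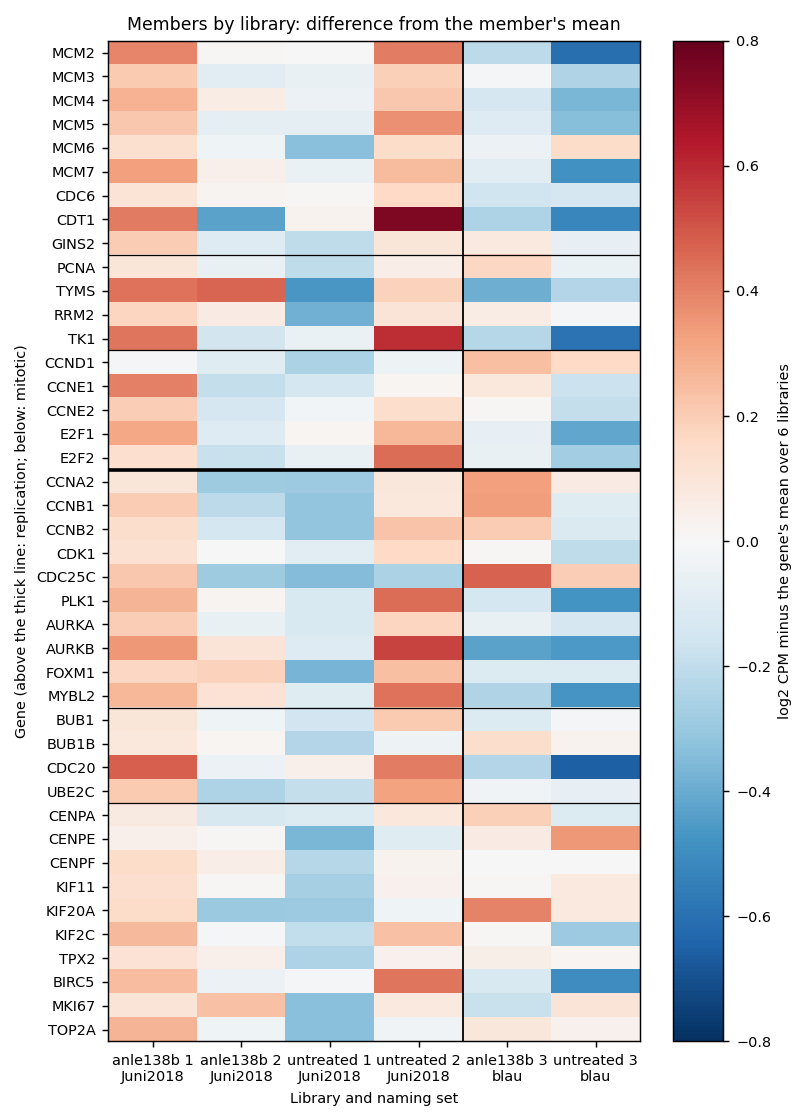
Log2 CPM of the 42 tested members (rows, by role) in 6 libraries (columns), as the difference from each gene's mean; red is above and blue below the mean, and the thick line parts replication from mitotic genes. The columns of anle138b 1 and untreated 2 are mostly red and that of untreated 1 mostly blue, with medians of 0.20, 0.17 and -0.17.

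Only 4 of 42 members in untreated 1 and 12 of 42 in untreated 3 were above their means, so most members were low in both tumors, while the medians of replication and mitotic members differed. In untreated 1 the mitotic members had a median deviation of -0.23 and the replication members one of -0.06. In untreated 3 they were -0.08 for mitotic and -0.24 for replication members. The difference between the kinds of gene was not tested. In the high tumors both kinds of gene had medians above 0 under TMM. They were 0.21 and 0.16 in anle138b 1 and 0.19 and 0.12 in untreated 2 for replication and mitotic members. The 55 other mitotic genes had -0.17 in untreated 1 and -0.05 in untreated 3, and the 47 other replication genes -0.07 in both, so the related replication genes were not lower in untreated 3 than in untreated 1. In anle138b 1 these lists had 0.14 and 0.10, and in untreated 2 they had 0.11 and 0.09. All these values are under TMM, and some depend on it. With library size alone the mitotic members of untreated 2 had a median of 0.03, with 12 of 24 above their means. That was under the 0.05 of anle138b 3. The replication members of untreated 1 were then at 0, with 9 of 18 above their means.

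Other measures moved with this order under TMM. Anle138b 1 and untreated 2 had the lowest TMM factors, 0.945 and 0.936, against 1.01 to 1.04 in the other 4 libraries. When libraries were scaled by their total alone, untreated 2 exceeded untreated 1 in 40 of 42 members with a median of 0.18, while the median of all genes shifted to -0.11. The same scaling gave 33 of 42 and 0.16 for anle138b 1 over anle138b 2. These tumors also had the smallest sums of the 10 fibroblast markers, 476 and 442 CPM against 515 to 863, and of the 9 myeloid markers, 31.6 and 25.4 CPM against 42.6 to 52.4. Within the fibroblast list the order was not shared by every gene, since LUM (230 CPM) and FAP (35.6 CPM) were highest in anle138b 1. Under TMM the 10 melanoma markers summed highest in the same tumors, 19000 and 18300 CPM against 14100 to 17500. Most of each sum was PMEL, at 13100 and 13400 CPM against 8280 to 12900. This order depended on the scaling. PMEL had 171427 of 13874820 counts in anle138b 1 and 181489 of 14464593 in untreated 2. It had 211870 of 15865560 in untreated 1, the largest share of any library. Under TMM the order was also not shared by every melanoma marker, since DCT (2200 CPM) and TYRP1 (104 CPM) were lowest in untreated 2. MLANA (327 and 337 CPM) and S100B (137 and 183 CPM) lay below untreated 3 (474 and 321 CPM) in both tumors. Endothelial sums (32.8 and 37.7 CPM, against 31.7 to 43) and keratinocyte sums (22.8 and 24.4 CPM, against 17.8 to 26) did not follow this order. None of the fibroblast or myeloid markers was at 0 in all libraries. Skeletal muscle markers summed to 68.8 CPM in anle138b 2 and to 16.2 to 42 CPM elsewhere, with 1 of 7 at 0 in all. The part of these values in the members' levels was not tested.

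**Figure D4:**
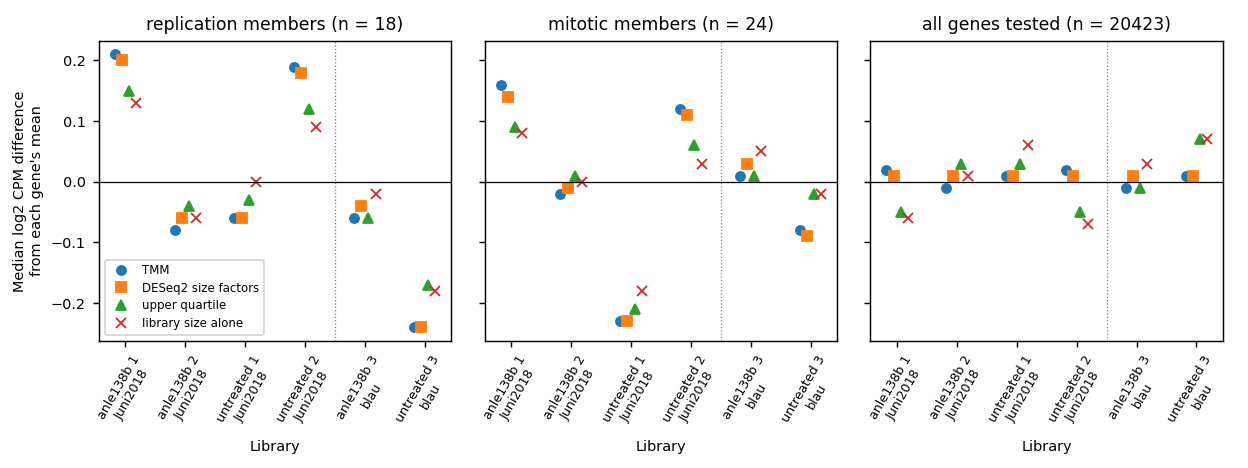
Median difference of log2 CPM from each gene's mean in each library, for replication members, mitotic members and all genes tested, under 4 ways of scaling the libraries (symbols); the dotted line parts the Juni2018 from the blau libraries. Anle138b 1 and untreated 2 are the highest libraries for replication members under all 4 scalings, and all-gene medians stay near 0 under TMM. For mitotic members untreated 2 (0.03) is below anle138b 3 (0.05) with library size alone.

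The naming sets were compared at equal treatment because each held both groups. Of 42 members 4 were lower in blau and 0 were higher, where 15.5% of all genes were called and 7.14% were called lower in blau, so a share of this size is near the background. AURKB, the kinase of the chromosomal passenger complex (chromosome 17, 8204733 to 8210600), read 68.1, 57.3, 49.7 and 77.8 CPM in anle138b 1 and 2 and untreated 1 and 2, against 39.7 and 38.9 CPM in the blau tumors. Both blau tumors were below all 4 others, and the log2 fold change was -0.69 ± 0.17 (SE; adjusted p = 0.0279, edgeR). CDC20 fell by 0.68 on the log2 scale (SE 0.18; adjusted p = 0.0322), from a mean of 89 CPM to 56 CPM. MCM2 fell by 0.62 (SE 0.16; adjusted p = 0.0335), from 127 to 83.2 CPM. For MYBL2 (chromosome 20, 43667019 to 43716496) the libraries read 122, 110, 95.1 and 137 CPM in the Juni2018 tumors, in the same order, and 85.8 and 73.2 CPM in the blau tumors, a log2 fold change of -0.55 ± 0.15 (adjusted p = 0.0388). All 4 calls were lost without anle138b 1 and without untreated 3, where 0 members were called and, in the second case, blau held 1 library, and 12 members were called without anle138b 2.

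Both blau tumors lay below all Juni2018 tumors for 11 of 42 members, an order found for 19.4% of all genes. The medians were -0.25 for replication members with 13 of 18 negative and -0.03 for mitotic members with 12 of 24 negative. Over all genes the median was -0.02, with 10558 of 20423 negative, so the mitotic members were near the background. The difference between replication and mitotic medians was not tested. MCM7, MCM4 and TK1 had log2 fold changes of -0.43, -0.38 and -0.64 without passing (adjusted p = 0.0597, 0.0634 and 0.0739, edgeR). On the other side stood CDC25C at 0.49, KIF20A at 0.35, CENPE at 0.31 and CCND1 at 0.30, also not called. Fibroblast marker sums were 863 and 587 CPM in the blau tumors against 442 to 548 CPM in the Juni2018 tumors, and their part in these differences was not tested. Depth and naming set cannot be told apart, since both blau libraries were deeper than the rest.

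**Figure D5:**
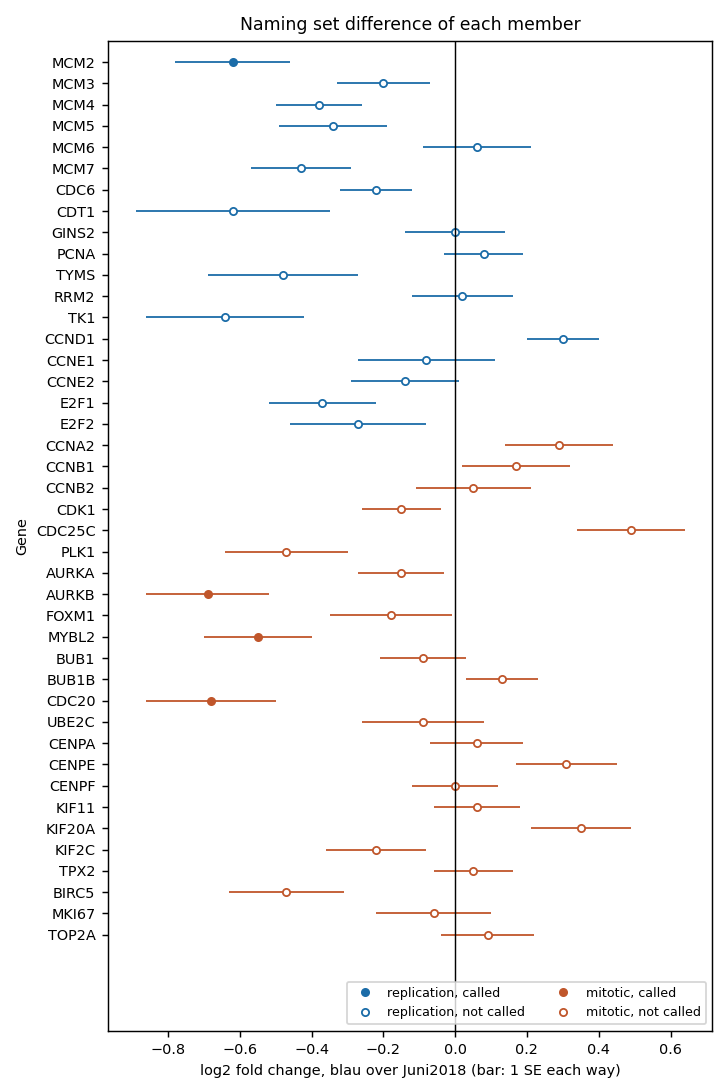
Log2 fold change of the blau over the Juni2018 set for the 42 tested members, with bars of 1 SE each way; blue marks replication and orange mitotic genes, and filled points were called. MCM2, AURKB, MYBL2 and CDC20 are the filled points, between -0.69 and -0.55.

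Whether the treatment difference itself depended on the set was tested with an interaction term, which has 2 residual degrees of freedom. No member was called by edgeR, limma or DESeq2, and edgeR called 0% of all genes; 1 member, CENPE, had an unadjusted p under 0.05. CENPE, the kinesin that carries chromosomes to the spindle equator (chromosome 4, 103105806 to 103198409), read 131 and 128 CPM in the treated and 98.9 and 119 CPM in the untreated Juni2018 tumors, but 133 CPM in the treated and 162 CPM in the untreated blau tumor. Its log2 difference was 0.26 in Juni2018 and -0.29 in blau, an interaction of -0.55 ± 0.22 (adjusted p = 0.747, edgeR). MKI67 showed a like pattern, 0.29 and -0.29 (interaction -0.57 ± 0.27, adjusted p = 0.751). TYMS had 0.56 and -0.16 (interaction -0.72 ± 0.33, adjusted p = 0.749). The blau values come from 1 tumor of each kind.

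Related genes outside the members gave a like picture: of 144 tested in 4 further lists, 0 were called for treatment. Of 47 other replication genes 33 had positive estimates, with a median of 0.05. LIG1, the ligase that joins Okazaki fragments, had the smallest p among them at -0.27 ± 0.12 (adjusted p = 0.575, edgeR), and GINS3, RFC3 and POLD3 had 0.27, 0.18 and 0.14. Of 55 other mitotic genes 43 had positive estimates, with a median of 0.08. CKAP2L, a spindle pole protein, read 45.3, 44.2 and 52.1 CPM in treated and 29.3, 36 and 43.7 CPM in untreated tumors, which did not overlap (0.39 ± 0.11; adjusted p = 0.223, edgeR). All treated above all untreated was the order of 2 of these 55 genes and of 4.03% of all genes. CKAP2L was named for the smallest p in its list. NEK2, KIF23 and ASPM had 0.30, 0.19 and 0.19.

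The 22 tested cyclin, CDK, E2F and RB family genes had a median of 0.07. E2F7, a repressing E2F factor, read 58.1, 52.2 and 59.9 CPM in treated and 42.1, 49.2 and 40.6 CPM in untreated tumors, again without overlap (0.37 ± 0.11; adjusted p = 0.247, edgeR). That order was found for 3 of these 22 genes, against 4.03% of all genes. CCND3 and RBL2 had 0.23 and 0.17, and CDK2, whose exons overlap those of the far more abundant PMEL, -0.16. The 20 tested CDK inhibitor and growth arrest genes had a median of 0.04 and the widest range, from -0.45 to 0.66. GADD45B, a stress-induced growth arrest gene, read 29.7, 21.6 and 25.2 CPM in treated and 18.8, 17.7 and 12.7 CPM in untreated tumors (0.66 ± 0.16; adjusted p = 0.114, edgeR). CCNG1, the gene of cyclin G1, had 0.37 ± 0.10 (adjusted p = 0.19), while GADD45A had -0.45 ± 0.14 (adjusted p = 0.267) and CDKN2B, an inhibitor of CDK4 and CDK6, -0.40 ± 0.13 (adjusted p = 0.316). Treated and untreated tumors did not overlap for GADD45B, CCNG1 and CDKN2B, and none of the 4 was called. Over all genes 4.03% had all treated above all untreated tumors, and 912 of 20423 had all treated below. These genes were named for the smallest p in their list, a choice that favors such separation.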

How the data were processed

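Per the labels' protocols, RNA came from a TRIzol extraction and libraries from Illumina's TruSeq RNA Library Prep Kit v2, which gives no strand information. Each deposited file holds the raw counts per gene of 1 tumor, for 60617 identifiers. The submitters' processing notes name bcl2fastq 2.17.1.14, featureCounts 1.5.0-p1, STAR 2.5.2a and the build hg38. How reads on either strand, multiply mapped reads and mouse reads were treated, and which annotation was used, is not given in the sources used here, so host reads counted for conserved genes cannot be told apart from tumor reads.

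The fit used edgeR 4.0.16 (R 4.3.3) on the 20423 genes that filterByExpr kept by group, at a minimum count of 10 and a total of 15, with TMM scaling. The quasi-likelihood F test (glmQLFit, glmQLFTest) used naming set and treatment as terms, with 3 residual degrees of freedom, and p-values were adjusted by Benjamini-Hochberg over all genes tested, with calls at 0.05. Standard errors came from the F statistic. Log2 CPM used a prior count of 2, and the biological coefficient of variation was 12.8%. Replicates differed by more than sampling noise in a chi-square test of their counts, and each library was 1 replicate. Replicate numbers follow the listing order and do not pair tumors. Positions and exon lengths came from GENCODE 29 (GRCh38) and promoters from RefSeq. The fits were tested on simulated data. Alternatives were no set term, 3 other scalings, 2 other filters, the DESeq2 1.42.0 Wald test, limma 3.58.1 voom, the Juni2018 set alone and leaving out each library.

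The members, the related lists and the cell type markers were chosen with earlier results of these data known. Values in every library are given for the 2 members of each role group with the smallest treatment p, the 4 with the smallest naming set p, the 3 with the smallest interaction p, and MKI67, TOP2A, CDK1, CCND1, PCNA, MCM2 and E2F1. Up to 4 genes with the smallest p were named from each related list. Genes named outside this rule are those that a count singled out or whose estimate alone is given.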

Additional observations from a re-analysis of the deposited data

How the results depend on the processing

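No member was called for treatment under any of 15 alternatives, and the members' median log2 fold change stayed positive, from 0.05 without anle138b replicate 1 to 0.21 without untreated replicate 2. Single estimates near 0 were less stable. Of 42 members 21 kept their direction under all alternatives, 21 reversed under at least 1, and 41 kept it under the 3 other scalings, AURKB being the exception. In the Juni2018 set alone MCM2 and MCM3 were at -0.01, MCM5 at -0.08, TK1 at -0.13, CCNE2 at -0.02, E2F1 and PLK1 at -0.03, CENPA at -0.02 and BIRC5 at -0.11. TK1 was at -0.01 without the set term. AURKB was at 0.01 with DESeq2 size factors and the DESeq2 test, 0.02 with limma and 0.00 with no filter or the stricter filter.

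Leaving out 1 library at a time gave ranges of -0.01 to 0.29 for MCM2, 0.00 to 0.17 for MCM3, -0.08 to 0.19 for MCM5, -0.11 to 0.14 for MCM6, -0.05 to 0.02 for CDC6, -0.37 to 0.14 for CDT1 and -0.13 to 0.28 for TK1. They were -0.02 to 0.17 for CCNE2, -0.03 to 0.24 for E2F1, -0.22 to 0.12 for E2F2, -0.03 to 0.30 for PLK1, -0.03 to 0.14 for AURKA, -0.13 to 0.20 for AURKB, -0.01 to 0.30 for FOXM1 and -0.01 to 0.26 for MYBL2. The remaining ones were -0.11 to 0.06 for BUB1, -0.18 to 0.12 for UBE2C, -0.02 to 0.18 for CENPA, -0.03 to 0.27 for CENPE, -0.11 to 0.23 for BIRC5 and -0.04 to 0.30 for MKI67.

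Calls between naming sets moved more. The 4 members became 9 with upper-quartile scaling, 8 with library size alone, 16 with no filter and 7 with DESeq2, and 0 to 12 when 1 library was left out. Over all genes the 215 treatment calls became 9 without the set term, 754 with no filter, 412 with DESeq2, 92 in the Juni2018 set alone and 89 to 392 when 1 library was left out. The 3157 set calls became 6250 with no filter and 993 to 5960 when 1 library was left out, and the interaction had 31 calls by DESeq2. The cause was not tested. With 3 tumors a group, standard errors of 0.09 to 0.25 limit what could be seen among members to differences larger than most of those estimated.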

Other observations

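CCND2, the gene of cyclin D2, was outside the members and was chosen after its values were seen. It held 1 and 1 counts in anle138b 1 and 2 and 6 and 2 in untreated 1 and 2, but 281 and 334 in anle138b 3 and untreated 3. The filter by treatment group left it untested, since only the blau tumors carried counts of any size. CCND1, its close relative, lay between 73.2 and 103 CPM in all 6 tumors, and CCND3 between 34 and 57.7 CPM.

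CDK2 read 584 to 1020 CPM, more than any member, and its exons share 16.8% of their bases with PMEL and ENSG00000258554. PMEL, the melanosome structural protein, read 8280 to 13400 CPM in libraries that do not mark strand, so the level of CDK2 is uncertain. In anle138b 2 the muscle genes CKM and TNNT3 read 10.5 and 6.15 CPM, against at most 0.467 and 0.212 CPM in the other tumors.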
